A study of Mus musculus with 12 samples.

Results

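The tumour suppressor p53, its regulators and its best known transcriptional targets were examined as 1 set of 30 genes, chosen by name for their place in the p53 pathway, with earlier results of these data known. All 30 were among the 38087 genes with an Ensembl identifier in the files, and 29 passed the filter on low counts. Messenger RNA had been sequenced from 12 libraries of colonic mucosa, 6 from wild type mice and 6 from mice of genotype Sgo1-/+, which carry an altered allele of the gene of shugoshin 1, a guardian of sister chromatid cohesion. Both groups had the same exposure to azoxymethane, which alkylates DNA and induces colon tumours. They were dosed 2 times weekly with 4 mg/kg from week 8 to week 12 of life. The mucosa of both was taken at 9 months, so that neither group was untreated. The labels do not describe the Sgo1 allele, the strain or the cells that carry it, nor do they state that each library came from a separate mouse. The p-values therefore measure the spread between these libraries, which may be technical. The series describes its aim as learning how chromosome instability affects the colon.

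The p53 protein is a transcription factor that is held at a low level by Mdm2, a ubiquitin ligase, and held inactive by the related protein Mdm4. DNA damage, chromosome missegregation and other stresses release it, and it then binds response elements near target genes that stop the cell cycle, start apoptosis, repair DNA or adjust metabolism. Much of its control is by protein stability and modification, so the Trp53 transcript is not a measure of p53 activity, and target transcripts are the usual readout. Mdm2 is itself a target and closes a negative feedback loop.

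The libraries held 5711553 to 10198304 counts, and levels are given as counts per 1000000 (CPM) after TMM scaling, which aligns the bulk of genes between libraries. Markers of epithelium (Epcam, Krt8 and 5 others) summed to 5752 to 8024 CPM in wild type and 6409 to 7617 in Sgo1-/+, and all 7 were detected. Wild type replicates 3 and 5 and Sgo1-/+ replicate 3 stood apart, with 37.4% to 38.8% of their counts in Gm13340, Gm13341 and Gm11410, against 10.4% to 22.3% elsewhere. These rows are called mitochondrial-like here because such genes are known as nuclear copies of mitochondrial sequence, which was not checked against a genome. Outside the libraries that stood apart, wild type shares lay between 14.2% and 22.3%, whereas Sgo1-/+ shares lay between 10.4% and 19.8%. The share was thus not balanced between the genotypes. A fit that holds it as a covariate can therefore also take up part of a genotype difference, and how much was not tested. A suffix in the column names, whose meaning is not given, marked 2 libraries of each genotype, replicates 1 and 6 in wild type and 5 and 6 in Sgo1-/+. The targeted gene, listed as Sgol1, was at 3.65 ± 1.79 CPM (SD, n = 6) in wild type and at 2.33 ± 0.41 CPM (SD, n = 6) in Sgo1-/+, a difference in mean log2 CPM of -0.49 that did not pass an exact two-sided permutation test (p = 0.126). The edgeR log2 change was -0.67 ± 0.31 (SE), with an edgeR unadjusted p of 0.0483 and adjusted p of 0.517. With library totals as the only scaling the difference in mean log2 CPM was -0.18 (exact permutation p = 0.673). Without wild type replicate 1, its lowest library, it was -0.69 (exact permutation p = 0.00649). Leaving out replicate 2 of the same genotype, the highest library, gave -0.29 (exact permutation p = 0.251). In bulk mucosa, fewer cells of a type and less RNA per cell cannot be told apart.

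None of the 29 p53 pathway genes tested differed between the genotypes at an adjusted p of 0.05 in edgeR. Their log2 changes, Sgo1-/+ minus wild type throughout, lay above 0 for 14 genes and below 0 for 15, with a median of -0.037. Over all 13889 genes tested the median was -0.0056 and 49.0% lay above 0. The same edgeR test called 0% of all genes, and adjusted p-values for the pathway ran from 0.492 to 0.975. At an unadjusted p under 0.05 there were 3 pathway genes, against 9.65% of all genes. These were the repair gene Ddb2 and the secreted factor Gdf15 on the higher side, where 4.56% of all genes lay, and the death receptor gene Fas on the lower side, where 5.08% lay. A share of 3 in 29 is close to that background. The count was 7 without Sgo1-/+ replicate 3, where 18.7% of all genes passed, and 5 without wild type replicate 2, where 13.9% did. It was 1 without Sgo1-/+ replicates 1, 2, 4 or 5 in turn, and in each of those fits Gdf15 was below the filter. In those 4 fits 7.78%, 7.53%, 6.94% and 6.43% of all genes passed. DESeq2 called none of the 29, with 0.216% of all genes called, and it gave the same 3 genes at an unadjusted p under 0.05, with a smallest adjusted p of 0.381. No pathway gene had levels that did not overlap between the genotypes, a pattern seen in 0.346% of all genes. With library totals as the only scaling, 26 lay above 0 and 3 below, and the median of all genes moved to 0.31. Relative to that median the split was 14 above and 15 below, as with TMM.

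**Figure D1:**
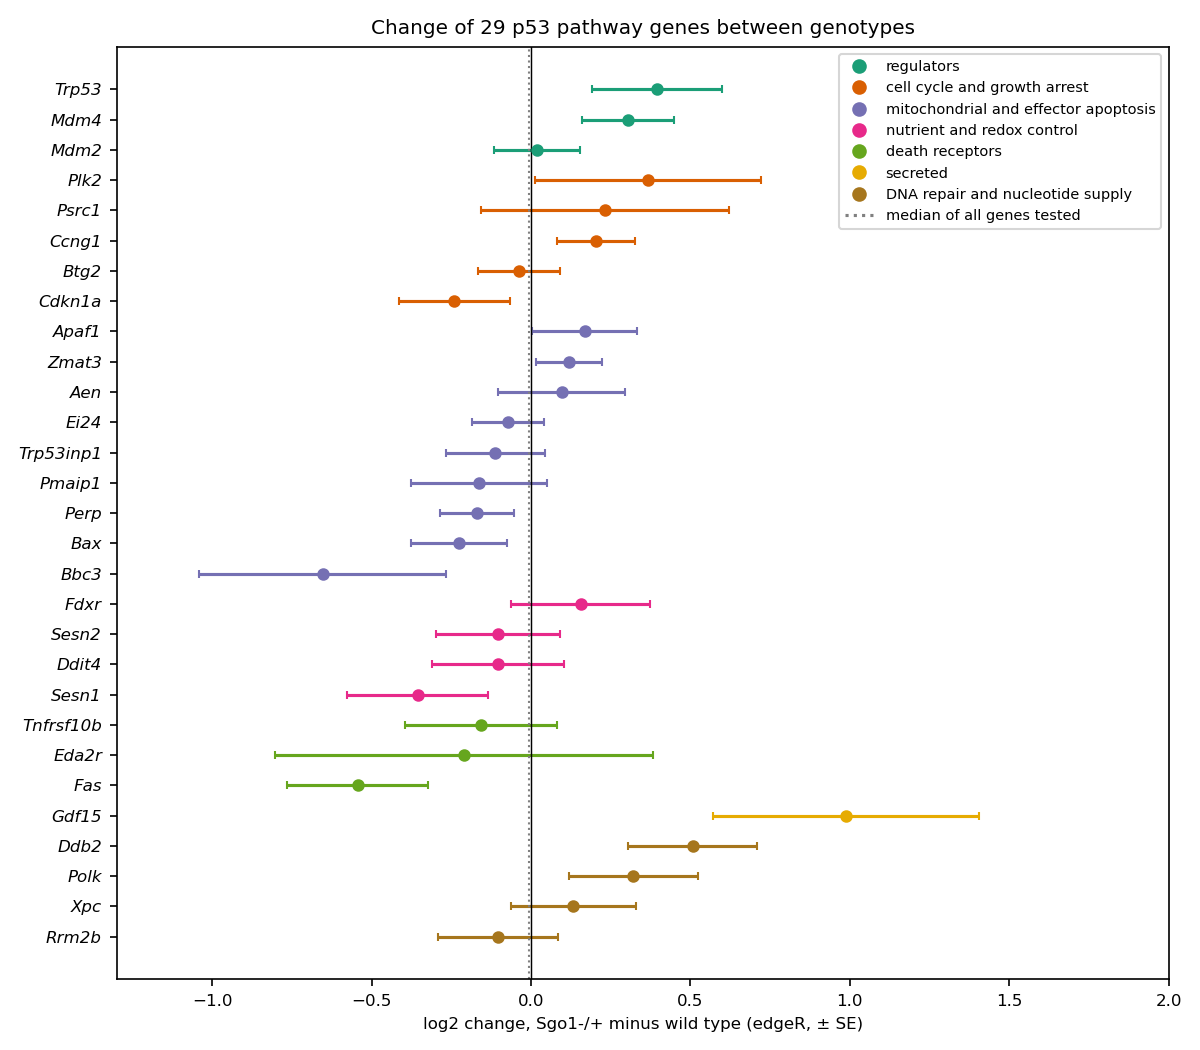
Log2 change between genotypes (x axis, Sgo1-/+ minus wild type, edgeR) for the 29 pathway genes tested, with points for estimates, bars for the SE and colours for roles. The dotted line is the median of all genes tested, -0.0056, and the points spread to both sides of it, from -0.65 for Bbc3 to 0.99 for Gdf15.

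The level per length of exon spanned over 2 orders of magnitude among the pathway genes. Perp, encoding a membrane protein of desmosomes, was highest at 126 ± 24.3 CPM per kb (SD, n = 6) in wild type and at 112 ± 5.27 CPM per kb (SD, n = 6) in Sgo1-/+. Cdkn1a, the gene of the cyclin-dependent kinase inhibitor p21, followed at 65.2 ± 14.5 and 55.2 ± 12.4 CPM per kb, and the antiproliferative gene Btg2 at 32.4 ± 3.03 and 31.6 ± 6.07. These 3 were separated from each other by more than their SDs in both genotypes when length was the union of exons. Ei24, Ccng1 and Trp53inp1, next in the order at 20.3 ± 2.93, 18.1 ± 2.77 and 16.1 ± 3.85 CPM per kb in wild type, were not separated beyond their spread. Trp53 itself was at 3.36 ± 0.88 CPM per kb in wild type and 4.42 ± 1.00 in Sgo1-/+, below Mdm2 at 7.49 ± 1.15 and 7.58 ± 1.22. The lowest were Rrm2b, Phlda3, Gdf15, Psrc1 and Eda2r, each under 1 CPM per kb in wild type. Gene models set these levels and their order in part, since 15 of the 30 moved by more than 1 SD when the longest transcript replaced the union of exons. On that length Cdkn1a was at 111 ± 24.8 CPM per kb in wild type, not separated from Perp beyond the spread, and Ei24 at 42.8 ± 6.17 lay above Btg2. Rrm2b was then at 1.72 ± 0.35 CPM per kb, above Polk at 1.58 ± 0.47 and no longer under 1.

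**Figure D2:**
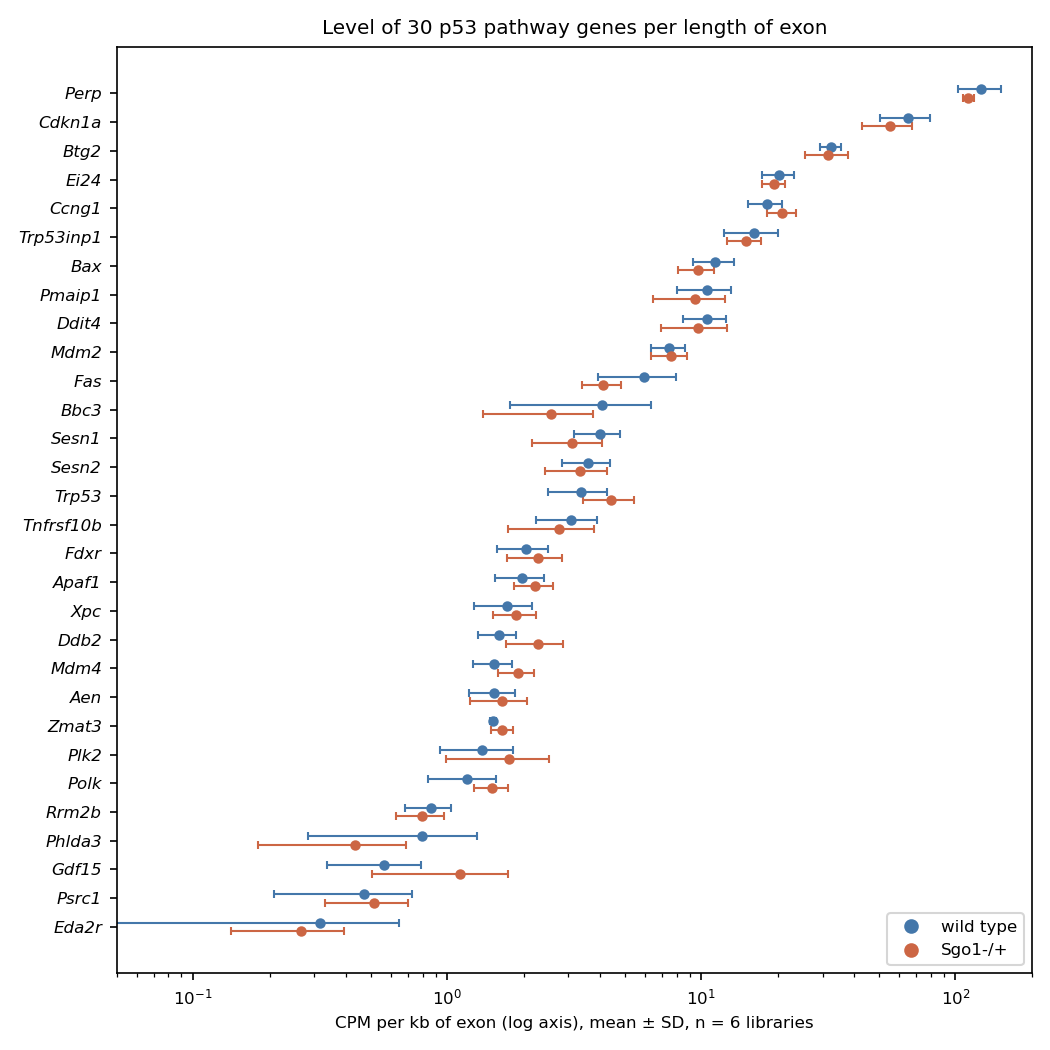
Level of the 30 pathway genes in CPM per kb of exon (x axis, log scale), with points for the mean and bars for the SD over 6 libraries per genotype, ordered by wild type level. Perp, Cdkn1a and Btg2 lead in both genotypes on the union of exons, whereas Ei24 exceeds Btg2 in wild type on the longest transcript (42.8 against 32.4), and the bar of Eda2r in wild type is cut at the left edge because its SD exceeds its mean.

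A p53 response element is a pair of decamers, and the promoters of the pathway genes were searched for it because the set is defined by p53 regulation. RefSeq promoter windows (GRCm38.p6, 250 bases before to 50 after a start site) were found for 22 of the 30 genes. A pair of p53 consensus decamers with no spacer, at most 1 mismatch and intact cores was found in Cdkn1a alone among the 22, a share of 4.55%, and in 18 of all 27025 genes, or 0.0666%. A single perfect p53 consensus decamer was present in 9 of the 22 (40.9%) and in 9.55% of all genes. Counted by window, to allow for genes with several, the shares were 32.3% and 8.36%. The pattern is its own reverse complement, so that 1 strand covers both, and a single decamer can lie inside a pair. The Cdkn1a pair and the decamers of the pathway genes whose levels are described in full are shown on the strand of each gene with the match in capitals. Positions count from the start site of the window, and a gene can have other starts. For Sesn1 and Polk that start site lies well inside the gene, whereas for Cdkn1a it is the outermost start.
Cdkn1a pair, chr17:29090928-29090947, plus strand, 1 mismatch, first base at -51: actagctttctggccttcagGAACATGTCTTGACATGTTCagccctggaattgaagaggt
Trp53 decamer, chr11:69580284-69580293, plus strand, first base at -75: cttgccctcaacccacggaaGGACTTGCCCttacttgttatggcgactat
Mdm2 decamer, chr10:117710935-117710944, minus strand, first base at -186: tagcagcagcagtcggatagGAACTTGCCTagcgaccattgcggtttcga
Ccng1 decamer, chr11:40755462-40755471, minus strand, first base at -185: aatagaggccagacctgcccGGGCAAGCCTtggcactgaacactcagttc
Sesn1 decamer, chr10:41887266-41887275, plus strand, first base at -173: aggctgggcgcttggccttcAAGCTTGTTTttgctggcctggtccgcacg
Polk decamer, chr13:96519409-96519418, minus strand, first base at -231: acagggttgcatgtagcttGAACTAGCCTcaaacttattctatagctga
Aen, Bax and Ei24 also held a decamer, and Cdkn1a held another outside the pair. A match describes these letters only, and response elements outside the windows were not searched for.

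The 3 regulators all had log2 changes above 0, and none passed. Trp53 (ENSMUSG00000059552, chr11:69580359-69591873 in build mm10) was at 7.505 CPM in the lowest, 14.5 at the median and 16.7 in the highest wild type library, and at 14.1, 17.4 and 23.1 in Sgo1-/+. Sgo1-/+ replicates 1, 4 and 5 lay above every wild type library, and wild type replicate 6 lay alone at the low end. The groups overlapped, and the log2 change was 0.39 ± 0.20 (SE), with an edgeR unadjusted p of 0.0751 and adjusted p of 0.545. It was 0.27 without wild type replicate 6. The processed copy Trp53-ps was listed at 0 in all libraries.

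Mdm4, the inhibitor that covers the p53 transactivation domain, was at 18.6, 21.6 and 28.7 CPM in the lowest, median and highest wild type library and at 20.3, 27.6 and 33.2 in Sgo1-/+. Only Sgo1-/+ replicates 1 and 4 were above the wild type range, and the log2 change was 0.30 ± 0.14. The pseudogene Mdm4-ps carried 33.1 ± 7.34 CPM in wild type and 35.5 ± 5.32 in Sgo1-/+, so that the split of reads between gene and copy is uncertain. With the share of mitochondrial-like counts held as a covariate the Mdm4 value was 0.14. Mdm2 (chr10:117688888-117710758) was at 27.6, 39.2 and 44.5 CPM in wild type and at 33.1, 36.8 and 47.6 in Sgo1-/+. The groups lay on top of each other, with a log2 change of 0.018 ± 0.13 and an edgeR unadjusted p of 0.895. The sign of that value turned without wild type replicate 1, at -0.058, and in other fits given in the closing section.

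**Figure D3:**
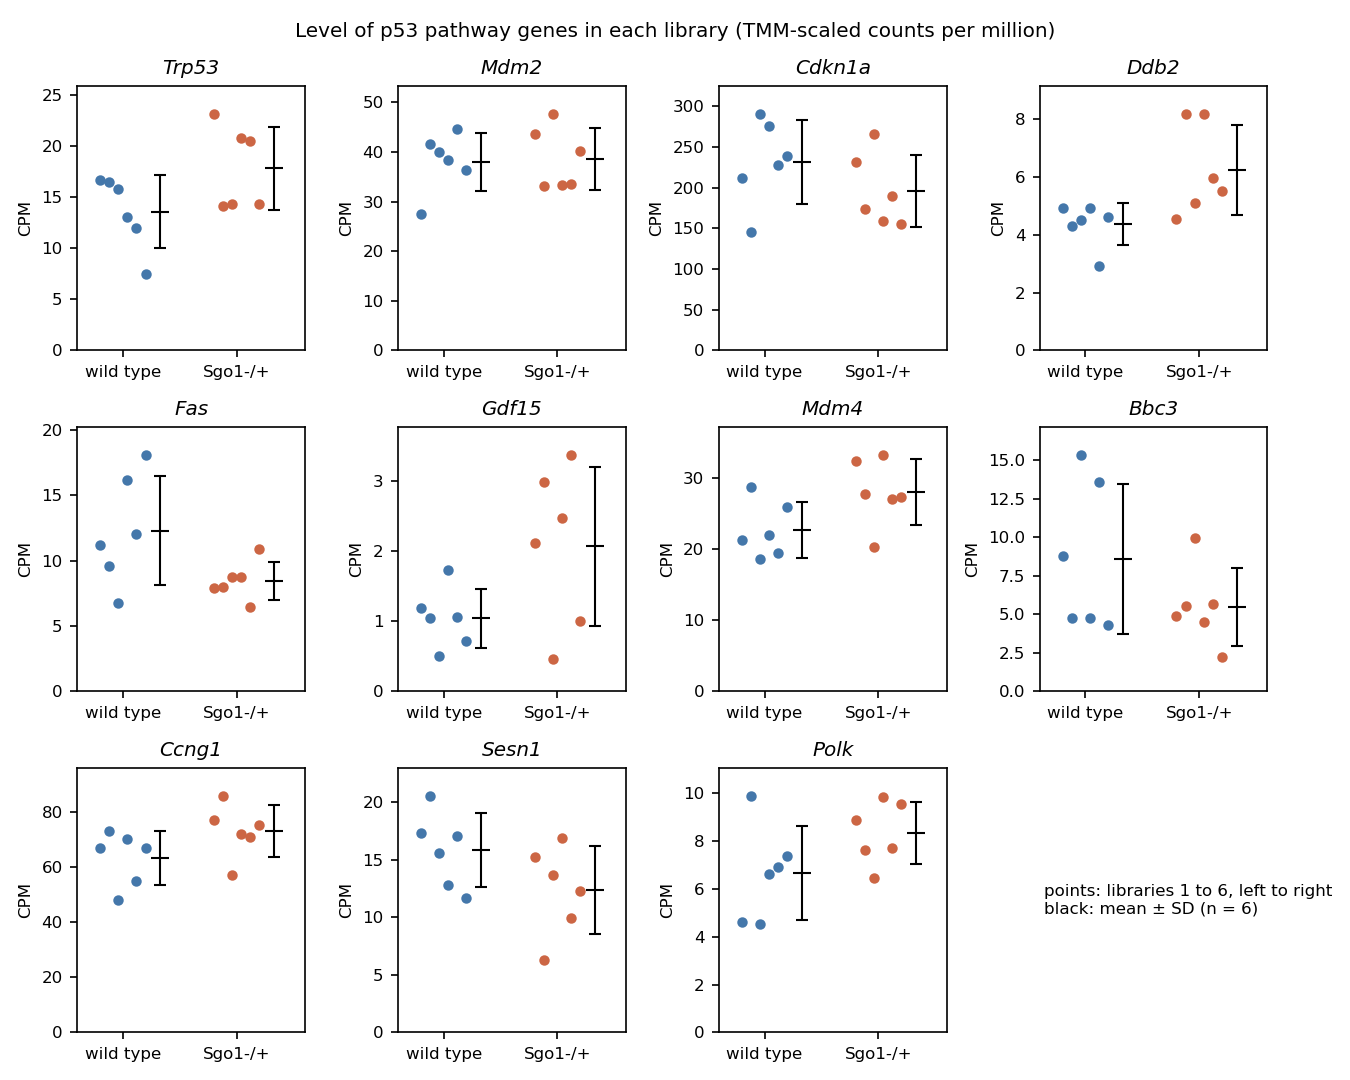
Level in CPM (y axis) of 11 pathway genes in each library, with points for replicates 1 to 6 from left to right in each genotype and black bars for the mean and SD. The groups overlap in every panel, with Sgo1-/+ shifted up for Ddb2, where 5 libraries exceed all wild type ones, and a wide wild type spread for Fas and Bbc3.

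Among the 5 genes of cell cycle and growth arrest, 3 log2 changes lay above 0 and 2 below, and none reached an unadjusted p of 0.05. Cdkn1a (chr17:29090979-29100722), whose product p21 halts the cycle, was the most abundant of them per length, with 854 to 2404 counts per library. It was at 145, 233 and 290 CPM in the lowest, median and highest wild type library and at 155, 182 and 266 in Sgo1-/+. Wild type replicate 2 held the lowest of all levels, and no Sgo1-/+ library left the wild type range. The log2 change was -0.24 ± 0.17, with an edgeR unadjusted p of 0.191, and it was 0.092 with library totals as the only scaling. With the share of mitochondrial-like counts held as a covariate it was -0.079, and without wild type replicate 3 it was -0.16.

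Ccng1, the gene of cyclin G1, which acts on Mdm2 in the feedback loop, was at 48.0, 67.0 and 73.2 CPM in wild type and at 57.3, 73.7 and 85.8 in Sgo1-/+. Sgo1-/+ replicates 1, 2 and 6 were above the wild type range, and the log2 change was 0.20 ± 0.12. The lowest libraries of each genotype were those richest in mitochondrial-like counts, and with that share as a covariate the value was 0.075. Because the share was not balanced between the genotypes, such a fit does not separate its part from that of genotype. Plk2, a polo-like kinase gene, had a log2 change of 0.37 ± 0.36. It ranged from 1.39 CPM in Sgo1-/+ replicate 3 to 11.2 in Sgo1-/+ replicate 5, and without replicate 3 the value was 0.57. It was 0.021 with the share of mitochondrial-like counts as a covariate, 0.065 among the 8 libraries without the suffix and 0.88 among the 4 with it. Psrc1, which encodes a microtubule-associated protein, was measured on 4 to 28 counts and had a value of 0.23 ± 0.39 that ran from 0.051 to 0.43 as 1 library was left out. Btg2, encoding a protein that promotes mRNA deadenylation, was at -0.037 ± 0.13.

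The 10 genes of mitochondrial and effector apoptosis gave 3 log2 changes above 0 and 6 below, again with none at an unadjusted p under 0.05. Bbc3, which encodes the BH3-only protein PUMA, was at 4.33, 6.79 and 15.3 CPM in the lowest, median and highest wild type library and at 2.20, 5.25 and 9.93 in Sgo1-/+. The 2 highest wild type libraries, replicates 3 and 5, and the highest Sgo1-/+ library, replicate 3, were the 3 richest in mitochondrial-like counts. The log2 change of -0.65 ± 0.39 became -0.29 without those 3 libraries and -0.12 with their share as a covariate. It was -0.40 without wild type replicate 3 alone. Bax, the pore-forming effector of the outer mitochondrial membrane, had a log2 change of -0.23 ± 0.15, and -0.12 without wild type replicate 3, its highest library at 24.1 CPM. Pmaip1, encoding the BH3-only protein NOXA, was at -0.16 ± 0.21, and at -0.86 among the suffixed libraries against 0.16 among the others. Leaving out 1 library gave -0.28 to -0.029. Perp was at -0.17 ± 0.12, with a wild type spread of 206 to 327 CPM and a Sgo1-/+ spread of 203 to 231. Without wild type replicate 4 the Perp value was -0.069.

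Trp53inp1, whose product links p53 to autophagy and apoptosis, had a value of -0.11 ± 0.16, and Ei24, encoding a membrane protein of the endoplasmic reticulum, one of -0.072 ± 0.11, which ran from -0.13 to -0.019 as 1 library was left out. Apaf1, the scaffold gene of the apoptosome, was at 0.17 ± 0.17 (0.10 to 0.26 in those fits), the RNA-binding protein gene Zmat3 at 0.12 ± 0.10, and the nuclease gene Aen at 0.097 ± 0.20. Zmat3 had the lowest coefficient of variation in wild type, 2.53% against a median of 22.1% over the genes tested in the pathway. It was measured on 67 to 245 counts per library, where counting noise alone gives a larger spread, so that value does not mark a steady gene. In Sgo1-/+ its coefficient of variation was 9.77%, with levels from 16.2 to 21.3 CPM. Phlda3, which encodes an inhibitor of Akt, did not pass the filter, with 0 to 14 counts per library. It was at 1.24 ± 0.80 CPM (SD, n = 6) in wild type and at 0.68 ± 0.40 CPM (SD, n = 6) in Sgo1-/+, and the unfiltered fit gave a log2 change of -0.66 ± 0.58.

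The 3 genes grouped here as death receptors and related receptors all had log2 changes below 0, and Fas alone was at an unadjusted p under 0.05. Fas (chr19:34290659-34327770), the receptor of Fas ligand, was at 6.78, 11.6 and 18.0 CPM in the lowest, median and highest wild type library and at 6.44, 8.33 and 10.9 in Sgo1-/+. Wild type replicates 4 and 6 were the highest, all 6 Sgo1-/+ libraries lay below the wild type mean, and the lower part of both ranges overlapped. The log2 change was -0.54 ± 0.22, with an edgeR unadjusted p of 0.0274 and adjusted p of 0.496. Lymphocytes also express Fas, so their markers are given beside it. The 7 T and B cell markers in the files summed to 44.0 to 85.6 CPM in wild type and 28.8 to 49.5 in Sgo1-/+. Of their log2 changes 6 were below 0, whereas 49.0% of all genes lay above 0. Cd3g and Igj were at an unadjusted p under 0.05, against 9.65% of all genes. Igj made up most of the sums, at 43.2 ± 15.3 CPM (SD, n = 6) in wild type and 27.7 ± 8.65 in Sgo1-/+. Cd3g was at 2.46 ± 1.09 and 1.23 ± 0.44 CPM. With limma-voom or the replicate block 4 of the 7 lay above 0, with medians of 0.030 and 0.026 beside -0.12 in edgeR, and with the block none was at an unadjusted p under 0.05. Library totals as the only scaling put 4 above 0, but 1 above and 6 below the median of all genes, 0.31, as with TMM. None of the 7 was at 0 in every library, and their part in the Fas value was not tested. Tnfrsf10b, the mouse TRAIL receptor gene, had a value of -0.16 ± 0.24, and it was 0.13 in the fit with the share of mitochondrial-like counts. It was -0.36 without Sgo1-/+ replicate 3, its highest library, and -0.041 without Sgo1-/+ replicate 5. Eda2r, a receptor gene of the ectodysplasin family, was measured on 2 to 33 counts, with a value of -0.21 ± 0.59 that was 0.46 without wild type replicate 1, its highest library at 4.92 CPM.

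Gdf15, which encodes a secreted stress cytokine of the TGF-beta family, had the largest log2 change of the 29, 0.99 ± 0.42, with an edgeR unadjusted p of 0.0337 and adjusted p of 0.4996. It was at 0.50, 1.06 and 1.73 CPM in the lowest, median and highest wild type library and at 0.46, 2.30 and 3.37 in Sgo1-/+. Sgo1-/+ replicates 1, 2, 4 and 5 were above the wild type range, and replicate 3 was the lowest of all 12. These levels rest on 2 to 34 counts per library. The filter was met by 5 Sgo1-/+ libraries and 1 wild type library, so that Gdf15 entered the test mainly through the group in which it was higher.

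The repair and nucleotide supply genes gave 3 log2 changes above 0 and 1 below. Ddb2 (chr2:91211572-91236982), whose product recognises ultraviolet photolesions for nucleotide excision repair, had the smallest p of the pathway in edgeR, whereas in DESeq2 Fas did (unadjusted p = 0.0193, beside 0.0335 for Ddb2). It was at 2.93, 4.57 and 4.92 CPM in the lowest, median and highest wild type library and at 4.53, 5.72 and 8.16 in Sgo1-/+. All Sgo1-/+ libraries but replicate 1 were above the wild type range. The log2 change was 0.51 ± 0.20, with an edgeR unadjusted p of 0.0258 and adjusted p of 0.492. It was 0.64 among the 8 libraries without the suffix and 0.25 among the 4 with it. Ddb2 overlaps Acp2 on the opposite strand, and the strand setting of the counting is not known here. Acp2 was at 28.9 ± 2.68 CPM (SD, n = 6) in wild type and at 28.8 ± 3.88 CPM (SD, n = 6) in Sgo1-/+, and its log2 change was -0.0093 ± 0.11.

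Polk, a translesion polymerase gene, was at 4.52, 6.78 and 9.86 CPM in wild type and at 6.47, 8.30 and 9.84 in Sgo1-/+. All Sgo1-/+ values fell inside the wild type range, and the log2 change was 0.32 ± 0.20. It was 0.49 without wild type replicate 2, its highest library, and 0.15 with the share of mitochondrial-like counts as a covariate. Xpc, encoding another damage sensor of nucleotide excision repair, was at 0.13 ± 0.20, with 0.036 to 0.22 as 1 library was left out. Rrm2b, the p53-inducible ribonucleotide reductase subunit gene, was at -0.10 ± 0.19, with -0.19 to -0.0087 in the same fits.

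The 4 genes of nutrient and redox control gave 1 log2 change above 0 and 3 below. Sesn1, encoding a sestrin that restrains mTORC1, was at 11.7, 16.3 and 20.5 CPM in the lowest, median and highest wild type library and at 6.30, 13.0 and 16.9 in Sgo1-/+. Sgo1-/+ replicates 2 and 5 fell below the wild type range, and the log2 change was -0.36 ± 0.22. It was -0.20 without Sgo1-/+ replicate 2. The related gene Sesn2 had a value of -0.10 ± 0.19 and Ddit4, another mTORC1 inhibitor gene, one of -0.10 ± 0.21. Fdxr, encoding mitochondrial ferredoxin reductase, was at 0.16 ± 0.22, and at 0.074 to 0.29 as 1 library was left out.

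In the 3 libraries richest in mitochondrial-like counts, 6 pathway genes had levels outside the range of the other 9 libraries, near the share of all genes that did so, 19.1%. Bbc3 and Tnfrsf10b were above that range. Mdm4, Ccng1, Trp53inp1 and Ei24 were below it. For Tnfrsf10b the 3 libraries were at 20.1 to 25.6 CPM and the others at 9.41 to 17.6. For Ei24 the ranges were 77.9 to 85.9 and 91.1 to 116 CPM.

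**Figure D4:**
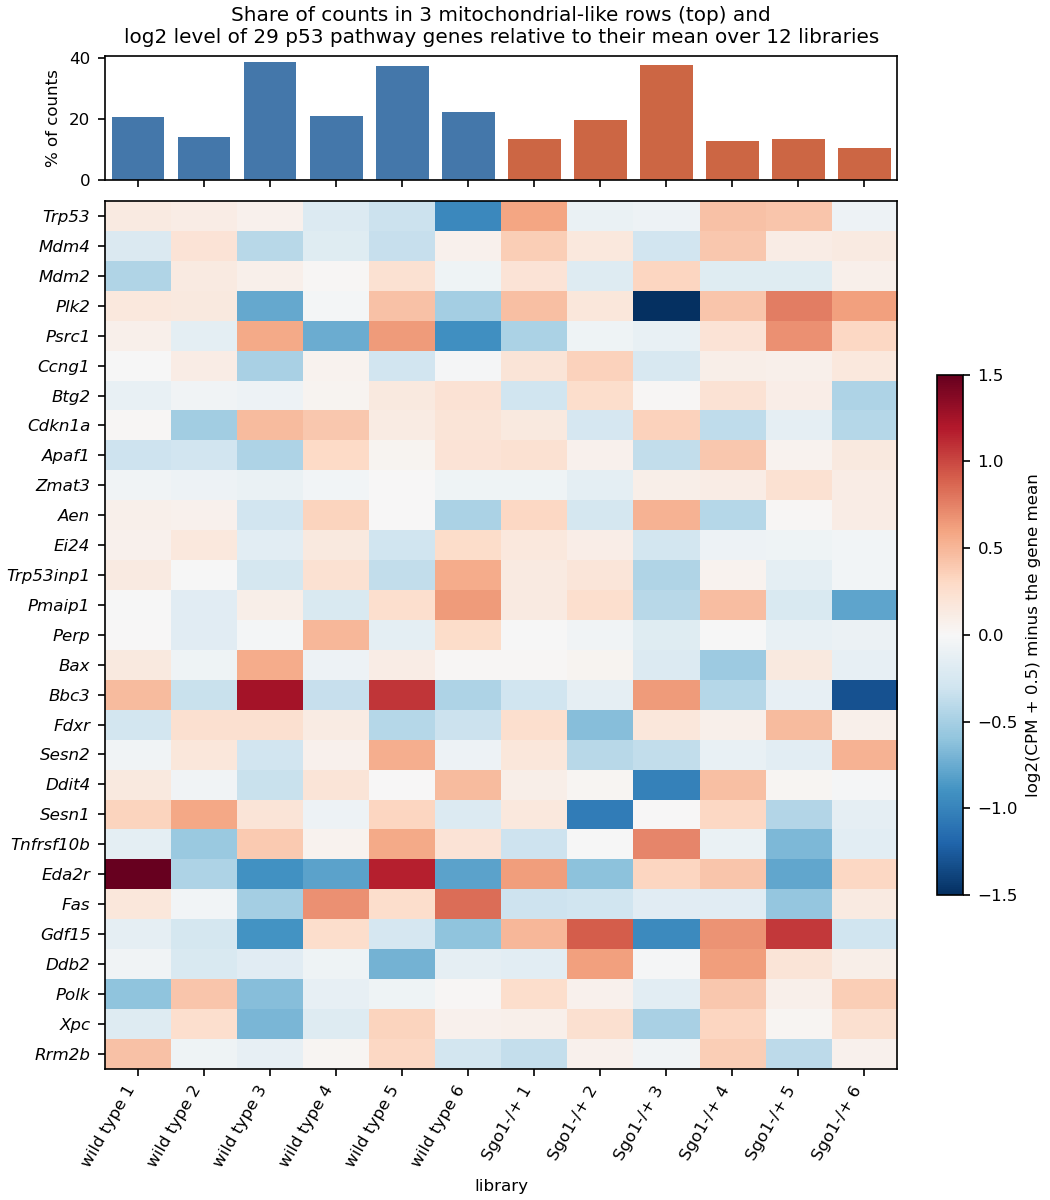
Share of counts in the 3 mitochondrial-like rows (top, % of counts, bars) and log2(CPM + 0.5) of each of 29 pathway genes minus its mean over the 12 libraries (below, colour), with genes ordered by role. Wild type 3, wild type 5 and Sgo1-/+ 3 carry the tallest bars, and Bbc3 is high and Mdm4 low in all 3 of them.

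Cdkn1a was set against 8 genes across the 12 libraries, to see whether its level moved with other p53 targets, with surface differentiation or with proliferation. It moved with Krt20, a keratin of surface colonocytes, with Pearson's r of 0.79 (permutation p = 0.00278, adjusted over the 8 relations 0.0222) and Spearman's rho of 0.78 (permutation p = 0.00412, adjusted 0.0330). The r was 0.91 without wild type replicate 2 and Sgo1-/+ replicate 6, the 2 libraries farthest from the Cdkn1a median. Within wild type it was 0.79 and within Sgo1-/+ 0.80, with exact permutation p adjusted over the 8 relations of 0.172 and 0.422 at n = 6 each. Among the 8 libraries without the suffix it was 0.78, with an exact permutation p adjusted over the 8 relations of 0.203. The 4 libraries with the suffix are too few for a correlation. Surface colonocyte markers as a whole summed to 8552 to 15960 CPM in wild type and 7795 to 12973 in Sgo1-/+, and all 7 were detected. All 7 had log2 changes below 0, with a median of -0.28, whereas 49.0% of all genes lay above 0. Among the 8 libraries without the suffix 4 of the 7 lay above 0 and 3 below, with a median of 0.052. Library totals as the only scaling gave the same split around 0, but 1 above and 6 below the median of all genes, 0.31. Relative to the median of all genes the marker median was then -0.26, beside -0.28 with TMM. Leaving out 1 library put up to 2 above 0.

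None of the 6 p53 targets among the 8 genes moved with Cdkn1a past an adjusted permutation p of 0.05, and the remaining targets were not set against it. For Mdm2 the r was 0.28 and rho 0.23 (permutation p = 0.370 and 0.469, adjusted 0.563 and 0.625). For Ccng1 both were negative, with r of -0.65 and rho of -0.66 (permutation p = 0.0202 and 0.0215, adjusted 0.0677 and 0.0743). Zmat3, Eda2r and Trp53inp1 had r of -0.26, -0.11 and -0.13, and Phlda3 one of 0.37. Their adjusted permutation p-values ran from 0.467 to 0.730 for r, and Phlda3 and Eda2r are too sparse for such a value to be read. The proliferation gene Mki67 had r of -0.65 and rho of -0.64 (permutation p = 0.0254 and 0.0278, adjusted 0.0677 and 0.0743). That r was -0.88 within wild type and 0.025 within Sgo1-/+ (exact permutation p adjusted 0.172 and 0.969, n = 6 each), and the difference between the genotypes was not tested. The wild type value rests on replicate 2, which had the highest Mki67 of its genotype, 129 CPM against 53.1 to 77.8, and the lowest Cdkn1a. Without it r was -0.40 over 5 libraries, too few for a test.

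**Figure D5:**
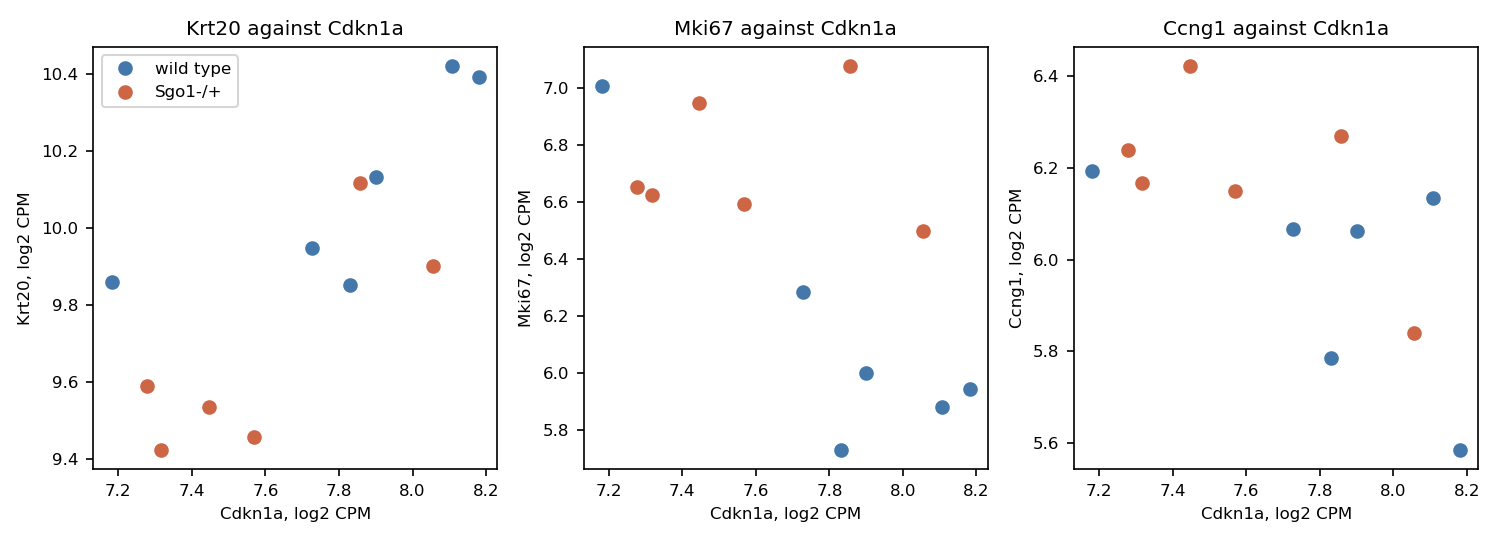
Level of Krt20, Mki67 and Ccng1 (y axes, log2 CPM) against Cdkn1a (x axes, log2 CPM), with 1 point per library coloured by genotype. Krt20 climbs with Cdkn1a in both genotypes, and Mki67 has an r of -0.88 in wild type, resting on the 1 library at 129 CPM, and of 0.025 in Sgo1-/+, a difference that was not tested.

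Genes around the 30 gave the same picture of no call in edgeR. Of 21 tested genes acting upstream of p53 (kinases, acetyltransferases, ubiquitin ligases and relatives), 13 had log2 changes above 0 and 8 below, with a median of 0.055. Kat5, the gene of the acetyltransferase TIP60, was at 0.44 ± 0.19 and the only one at an unadjusted p under 0.05, against 9.65% of all genes. None was without wild type replicate 6, Sgo1-/+ replicate 1 or Sgo1-/+ replicate 5, where 8.69%, 7.78% and 6.43% of all genes were. There were 2 without wild type replicate 1 or Sgo1-/+ replicate 3, where 8.25% and 18.7% of all genes were. The coactivator gene Crebbp was at -0.23 ± 0.11 and the damage kinase gene Atm at 0.38 ± 0.22. Of 29 further targets tested, 12 lay above 0 and 17 below, with a median of -0.13. At an unadjusted p under 0.05 there were 5 (17.2%), against 9.65% of all genes. Sco2, a cytochrome c oxidase assembly gene, was at 0.57 ± 0.20, Gadd45a, a growth arrest and repair gene, at -0.46 ± 0.16, and Trp53i11 at 0.49 ± 0.18. The other 2, outside the rule for named genes and chosen after their values were seen, were the cytokine gene Lif at -0.64 ± 0.24 and Triap1 at -0.36 ± 0.15. Sco2, Gadd45a, Trp53i11 and Lif stayed at an unadjusted p under 0.05 whichever of the 12 libraries was left out. With the share of mitochondrial-like counts as a covariate Gadd45a and Trp53i11 were not, while Sco2, Lif and Triap1 were. The count was 8 (27.6%) without Sgo1-/+ replicate 3, where 18.7% of all genes passed. Among the 8 libraries without the suffix it was 2 (6.90%), against 4.39% of all genes. Trp53i11 was among them, whereas Sco2, Gadd45a, Lif and Triap1 were not. Of these 5 genes only Gadd45a was at an unadjusted p under 0.05 among the libraries with the suffix. With library totals as the only scaling Sco2 and Trp53i11 were, and Gadd45a, Lif and Triap1 were not.

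Genes that p53 represses through p21 and the DREAM complex are mostly of the G2 and M phases. In Sgo1-/+ 16 of the 18 tested lay on the higher side, against 49.0% of all genes. Their median log2 change was 0.47, and 9 were at an unadjusted p under 0.05, against 9.65% of all genes, 8 higher and 1 lower, with none called after adjustment. Bub1, a spindle checkpoint kinase gene, was at 2.97 ± 0.80 CPM (SD, n = 6) in wild type and at 5.50 ± 1.33 CPM (SD, n = 6) in Sgo1-/+, and its log2 change was 0.88 ± 0.23. The mitotic kinase gene Plk1 was at 0.36 ± 0.13, and the phosphatase gene Cdc25a at -0.35 ± 0.13. These genes mark proliferating cells in general and are not specific to p53. With the share of mitochondrial-like counts held as a covariate 15 lay above 0 and the median was 0.18. At an unadjusted p under 0.05 were 5 (27.8%), against 10.4% of all genes. Without the 3 libraries richest in such counts 16 lay above 0 and the median was 0.38. There 4 (22.2%) were at an unadjusted p under 0.05, against 11.9% of all genes. Among the 8 libraries without the suffix 13 lay above 0 and the median was 0.28. In that fit 3 (16.7%) were at an unadjusted p under 0.05, against 4.39% of all genes. Without wild type replicate 2 the median was 0.67, and 13 (72.2%) were at an unadjusted p under 0.05, against 13.9% of all genes.

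Markers of other cell types, of colon position and of handling were summed in the same way. Their counts stand beside all genes tested, of which 49.0% lay above 0 and 9.65% were at an unadjusted p under 0.05 in edgeR. Distal colon markers summed to 46.5 to 133 CPM in wild type and 51.4 to 329 in Sgo1-/+, with all 4 log2 changes above 0 and Hoxa13 and Insl5 at an unadjusted p under 0.05. These 2 stayed so whichever library was left out. None of the 4 was at an unadjusted p under 0.05 in the libraries with the suffix alone, where their median was 0.44, beside 1.04 in all libraries. Adipocyte markers summed to 5.77 to 72.9 and 2.17 to 174 CPM, with 3 of the 4 tested above 0 and Cfd and Car3 at an unadjusted p under 0.05. Cfd stayed so whichever library was left out, and Car3 did not. Neither was at an unadjusted p under 0.05 with limma-voom, with the replicate block or among the 8 libraries without the suffix. Immediate early and stress genes summed to 337 to 438 and 293 to 367 CPM, with 8 of 9 below 0 and Jun and Dusp1 at an unadjusted p under 0.05. Dusp1, a phosphatase gene induced by stress, was at -0.48 ± 0.15 and stayed at an unadjusted p under 0.05 whichever library was left out, but not among the 8 libraries without the suffix or with library totals as the only scaling. Macrophage and granulocyte markers summed to 10.3 to 19.2 and 12.0 to 21.6 CPM, smooth muscle markers to 12.3 to 21.6 and 14.6 to 27.8, and fibroblast and endothelial markers to 16.8 to 39.7 and 16.2 to 29.99. None of these markers was at 0 in every library, and their part in the levels of the pathway genes was not tested.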

How the data were processed

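Messenger RNA of colonic mucosa was sequenced on an Illumina MiSeq from TruSeq libraries, per the labels' protocols. The submitters' processing notes name DESeq and the build mm10. Aligner, counter and strandedness of the counting are not given in those notes or the labels. The raw column of each file, as deposited by the authors, holds expected counts per gene, of which 69.6% of values above 0 were not whole (tolerance 0). The authors also deposited a normalized column of log2 values relative to the gene median over libraries, which was used for no test.

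Counts were rounded, and 505 rows without an Ensembl identifier (1.79% to 5.40% of counts) were left out. The groups are the genotypes in the labels. The 29 pathway genes were tested within a fit over 13889 genes with edgeR 4.0.16 in R 4.3.3 (glmQLFit, glmQLFTest, TMM, filterByExpr with minimum count 10 and minimum total 15), with Benjamini-Hochberg adjusted p-values and a threshold of 0.05. The SE of a log2 change is its size divided by the square root of F. Relations used log2 CPM with a prior count of 2 and 100000 resamples, or exact permutation for 8 libraries or fewer. DESeq2 1.42.0 and limma-voom (limma 3.58.1) were alternatives, beside changes of scaling, filter, block, covariate and libraries. Exon lengths came from GENCODE M21. The fit was first tested on simulated counts. No libraries of the same group held identical values, and replicates of a group differed by more than sampling noise, with a chi-square per degree of freedom of at least 16.3. Genes given in full are Trp53, Mdm2, Cdkn1a and the 8 others with the smallest p. Of each other pathway list the 3 with the smallest p are named. The 30 genes, the lists and these rules were chosen with earlier results of these data known. At these depths 1 CPM is only a few counts.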

Additional observations from a re-analysis of the deposited data

Results flagged for a closer look

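In 3 of the 60 sets of 6 libraries (30 genes in 2 genotypes) 1 library lay far from the other 5, and chance alone marks about 1 set in 20. Bax was at 24.1 CPM in wild type replicate 3, against 18.0 in the next library and 15.4 in the lowest. Tnfrsf10b was at 25.6 CPM in Sgo1-/+ replicate 3, against 15.2 in the next library and 9.41 in the lowest. Ddb2 was at 2.93 CPM in wild type replicate 5, against 4.31 in the next library and 4.92 in the highest. These 3 libraries are the ones with the largest shares of mitochondrial-like counts, from 37.4% to 38.8%, and the part of that share in these values was not tested.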

How the results depend on the processing

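No pathway gene was called in any of 24 alternatives, and 39 of 692 recomputed log2 changes had the opposite sign. Of the 29 genes 12 kept their sign in every fit that held them. Gdf15 was among these, although it was below the filter in some of the fits that left out 1 library. Over all genes, DESeq2 called 30, and 1 was called with the share of mitochondrial-like counts held as a covariate and 1 in the suffixed libraries alone. With library totals alone 26 pathway genes lay above 0 and 3 below, with a median of 0.27 beside 0.31 for all genes. The values that turned were Cdkn1a 0.092, Bax 0.13, Pmaip1 0.18, Trp53inp1 0.19, Sesn2 0.25, Eda2r 0.12, Tnfrsf10b 0.16, Btg2 0.27, Perp 0.15, Rrm2b 0.22, Ei24 0.23 and Ddit4 0.24, which follows from the shift of all genes. In the libraries without the suffix, Mdm2 was at -0.052, Pmaip1 0.16, Trp53inp1 0.093, Eda2r 0.43, Btg2 0.059, Ei24 0.017, Psrc1 -0.27, Fdxr -0.075 and Ddit4 0.031, and 0 pathway genes were at an unadjusted p under 0.05, against 4.39% of all genes, with fewer libraries. With the suffix, Sesn2 was at 0.29 and the median at 0.12. Without the 3 libraries richest in mitochondrial-like counts, Sesn2 was at 0.021 and Aen at -0.052. The mitochondrial-like covariate gave Tnfrsf10b 0.13, Xpc -0.00058 and 1 pathway gene at an unadjusted p under 0.05, Fas, against 10.4% of all genes. limma-voom gave Eda2r 0.23. These subsets, an older quasi-likelihood method and the Mki67 relation without wild type replicate 2 were chosen after seeing the data.

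Leaving out 1 library at a time gave 1 to 7 pathway genes at an unadjusted p under 0.05, against 6.43% to 18.7% of all genes, and turned the sign of 7 genes. Their ranges were -0.058 to 0.071 for Mdm2, -0.19 to 0.0075 for Trp53inp1, -0.23 to 0.0083 for Sesn2, -0.41 to 0.46 for Eda2r, -0.0095 to 0.20 for Aen, -0.083 to 0.056 for Btg2 and -0.20 to 0.032 for Ddit4. The Sgo1 difference ranged from -0.69 to -0.29, and passed only without wild type replicate 1. Where no other cause is given, the cause was not tested.

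The labels do not say whether the replicate numbers pair the libraries. Correlations of same-numbered libraries ran from -0.30 to 0.45, and only replicate 3 correlated best with its own number. Each number gives a single pair, so these correlations cannot decide whether the libraries were paired. With the replicate block 6 pathway genes (20.7%) were at an unadjusted p under 0.05, with 1706 (12.3%) of all genes, and none was called. Blocked in the same way, the Sgo1 difference stayed at -0.49 (exact permutation p = 0.156). Of the Cdkn1a relations 1 passed in all libraries, and 0 in the libraries without the suffix, within wild type or within Sgo1-/+. The sign turned for Mdm2 within wild type (-0.029) and for Eda2r and Mki67 within Sgo1-/+ (0.23 and 0.025). The search for response elements in windows of 5 kb or 2 kb was not run.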
